A study of Homo sapiens with 6 samples.

Results

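The genes described here encode enzymes that have been proposed to attach lactyl groups to lysines, known as lactylation writers. The 10 members are EP300, CREBBP, KAT2A, KAT2B, KAT5, KAT7, KAT8, HAT1, AARS1 and AARS2, out of 19974 protein-coding genes on chromosomes 1 to 22 and X. They were chosen by name, and each was examined over its RefSeq span on hg38 plus 5 kb on either side, here called its window. A peak was counted for a gene when it shared at least 1 bp with the window.

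The study mapped lactylation of histone H4 at lysine 5 (H4K5la) by ChIP-seq, the sequencing of DNA pulled down with an antibody, in PLC/PRF/5, an established line of human hepatocellular carcinoma cells. Control cells carry no stated treatment, and lactate cells received 20 mM lactate over 24 h. Replicates 2 and 3 of each condition gave the 4 peak lists used, and the 2 input libraries, made without antibody, were not analysed here. All groups are the same cell line, and nothing in the labels says whether replicates came from separate cultures, so the spread between them may be technical.

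Lactylation adds a group derived from lactate to a lysine. EP300 and its paralogue CREBBP are large transcriptional coactivators that acetylate histones and can also use lactyl-CoA as a donor. KAT2A and KAT2B are the GCN5 family of the SAGA and ATAC coactivator complexes. KAT5, KAT7 and KAT8 are MYST family acetyltransferases, HAT1 acetylates newly made histone H4, and AARS1 and AARS2 are the cytosolic and mitochondrial alanyl-tRNA synthetases, which can activate lactate directly. The comparison asked where the mark itself lies on the genes of its candidate writers, and whether this differs with added lactate. A peak gives the position of the mark and not the expression of the gene.

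The promoters of 8 members were found in a RefSeq table of GRCh38.p14, and KAT8 and AARS2 had no entry. The 250 bases before the gene start are printed here 5′ to 3′ on the strand of the gene, with the GC box motif GGGCGG (either strand) in capitals. HAT1 is shown because it was the member whose promoter lay under a peak in 3 libraries, KAT7 because a peak touched its promoter in 1 library, EP300 as a promoter with no peak in any library, and HSPB9 because its promoter, inside the KAT2A window, lay under a peak in the control libraries only.

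HAT1, chr2:171922211-171922460, plus strand: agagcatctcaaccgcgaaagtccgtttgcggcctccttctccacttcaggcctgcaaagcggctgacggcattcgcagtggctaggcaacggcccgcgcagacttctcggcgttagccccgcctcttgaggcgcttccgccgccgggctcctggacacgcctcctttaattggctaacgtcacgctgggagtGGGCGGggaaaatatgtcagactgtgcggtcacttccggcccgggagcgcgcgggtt
KAT7, chr17:49788431-49788680, plus strand: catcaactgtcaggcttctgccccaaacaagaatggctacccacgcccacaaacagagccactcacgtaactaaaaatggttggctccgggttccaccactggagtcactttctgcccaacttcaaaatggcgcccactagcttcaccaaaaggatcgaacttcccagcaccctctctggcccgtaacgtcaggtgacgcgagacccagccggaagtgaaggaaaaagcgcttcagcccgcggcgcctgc
EP300, chr22:41092342-41092591, plus strand: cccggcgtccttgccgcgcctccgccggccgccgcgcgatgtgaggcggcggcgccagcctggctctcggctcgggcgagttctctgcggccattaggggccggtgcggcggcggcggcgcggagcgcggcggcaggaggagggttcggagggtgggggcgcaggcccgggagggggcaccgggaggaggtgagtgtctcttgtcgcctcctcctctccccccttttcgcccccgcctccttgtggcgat
HSPB9, chr17:42122554-42122803, plus strand: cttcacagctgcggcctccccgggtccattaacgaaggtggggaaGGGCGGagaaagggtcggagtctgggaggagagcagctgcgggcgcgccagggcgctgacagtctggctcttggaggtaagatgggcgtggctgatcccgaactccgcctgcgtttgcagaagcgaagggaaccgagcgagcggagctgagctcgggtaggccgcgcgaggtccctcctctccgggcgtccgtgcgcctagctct

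The HAT1 sequence holds a GC box and a CCAAT motif (CCAAT on either strand), the HSPB9 sequence holds a GC box, and the KAT7 and EP300 sequences hold neither motif. Among first-listed promoters of 15813 coding genes, 56.0% hold a GC box, 34.4% hold CCAAT and 9.25% hold TATAAA within these 250 bases. Of the 8 members with an entry, CREBBP, KAT2B, HAT1 and AARS1 hold a GC box, and HAT1 and AARS1 hold CCAAT, while no member holds TATAAA. Their GC content ran from 56.4% (KAT7) to 80.8% (KAT2B), against a median of 62.4% over all these promoters. The GC-rich promoters of EP300 (76.8%), CREBBP (72.4%) and KAT2B (80.8%) lay under no peak. The same held for the less GC-rich promoters of KAT2A (58.8%), KAT5 (66.4%) and AARS1 (59.2%). These matches describe letters and are not binding sites.

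The lists held 52215 and 52959 peaks in control libraries, against 37951 and 38402 in lactate libraries. Read counts are not in the lists, but whole numbers of reads at each summit (the highest point of a peak) were worked back from fold and -log10 p, as the authors deposited them, for 100% of peaks in each library. Relative to control replicate 2, the sequencing depth of the other ChIP libraries came out as 0.942, 0.786 and 0.888, so both lactate libraries were shallower. Recovered input depth was nearly equal within a treatment, at 1.0 for control replicate 3 and 0.959 and 0.960 for the lactate libraries, and effects of treatment and of its input cannot be told apart. At the members, summits stood on 10 to 38 reads, and the median was 21 and 19 reads in the control and 19 and 20.5 reads in the lactate libraries. Hepatocyte and hepatocellular carcinoma marker genes were also looked up. HNF4A and APOA1 had a peak in all 4 libraries, SERPINA1 in control replicate 3 alone, and ALB, AFP, APOB, TTR and GPC3 in none. Among markers of other cells, 2 of 4 blood genes, 3 of 3 endothelial genes and 3 of 3 stromal genes had a peak in all 4 libraries, so peaks did not separate the labelled cell type from others.

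All 10 members had a peak in at least 1 library, as did 59.4% of coding genes. CREBBP, KAT2A, KAT7, KAT8 and AARS2 had one in all 4 libraries, 5 of 10 members against 33.0% of all coding genes. Member windows were longer, with a median of 51777.5 bp against 34170.5 bp. Over coding genes the share was 25.3% in windows up to 25000 bp and 44.0% above 120000 bp. Of the members, 3 of 4 in the shortest class and 1 of 2 in the longest had a peak in all 4. EP300 and AARS1 had peaks in the control pair and no lactate peak, a pattern seen at 5.77% of coding genes. KAT2B, KAT5 and HAT1 had a peak in 3 of the libraries. No member had peaks in both lactate libraries and no control peak, a pattern held by 1.11% of coding genes.

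The bases under peaks were then compared between the groups, in each window. EP300, KAT2A, KAT8, AARS1 and AARS2 had fewer covered bases in both lactate libraries than in either control library. Among coding genes with a peak in any library, 55.1% did so, and the 5 of 10 members are close to that background. CREBBP and HAT1 had more covered bases in both lactate libraries than in either control library, 2 of 10 members against a background of 5.72%. The groups overlapped at KAT2B, KAT5 and KAT7. With 2 libraries against 2, the smallest p that an exact two-sided permutation test allows is 0.333, so no gene could pass a usual threshold. The 7 separated genes each gave 0.333, KAT2B and KAT5 gave 0.667 and KAT7 gave 1. When each library was limited to its 37951 peaks with the lowest p, 4 members were lower and 3 were higher, against 38.6% and 12.7% of coding genes with a peak in that setting. Without lactate replicate 3 the number of higher members was 4, as KAT5 and KAT7 joined. Without lactate replicate 2 the number of lower members was 6, and KAT7 was among them, so KAT7 took opposite sides depending on which lactate library was left out. Leaving out a library makes non-overlap easier at every gene. The share over all coding genes is not given for it, so these higher counts are not a result about the members.

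**Figure D1:**
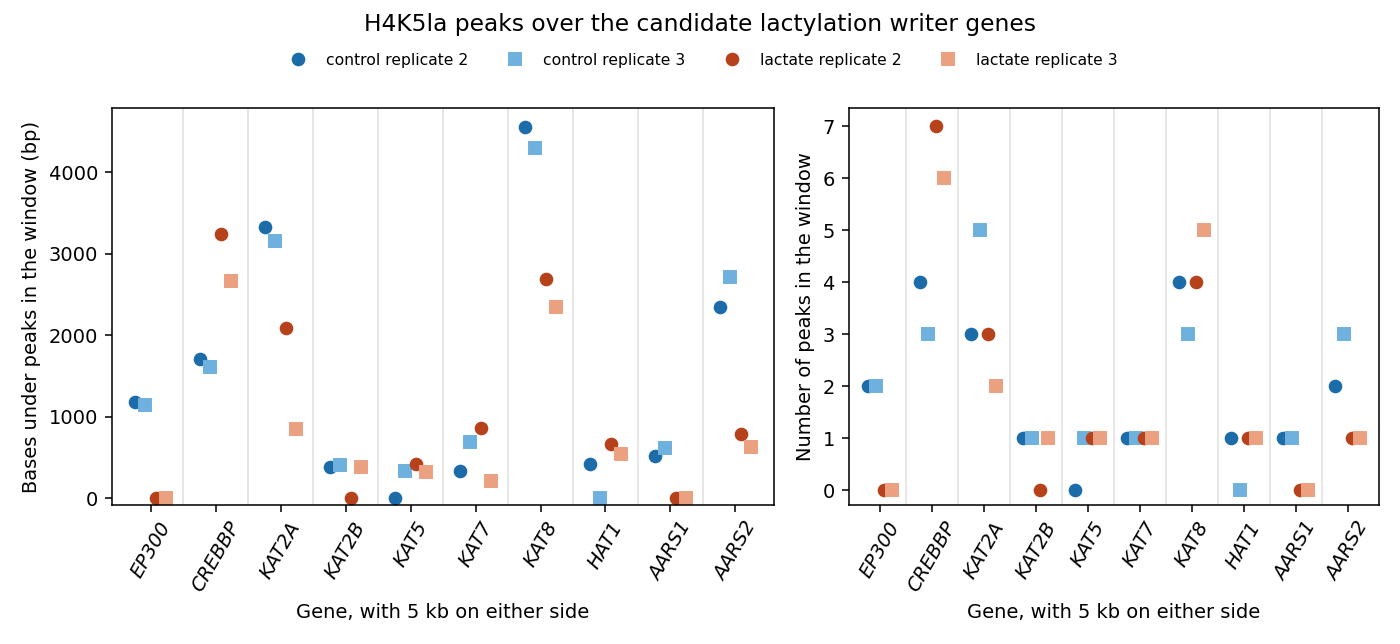
Bases under H4K5la peaks (left, bp) and number of peaks (right) in the window of each member, the gene span plus 5 kb on either side; each point is 1 library. The control points lie above the lactate points at EP300, KAT2A, KAT8, AARS1 and AARS2 on the left, and below them at CREBBP and HAT1.

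Summed over the 10 windows, control libraries held 14775 and 14971 bp under peaks and lactate libraries 10756 and 7952 bp. The ratio of the lactate to the control mean was 0.629, beside 0.522 over the windows of all coding genes. The number of peaks was 19 and 20 in the control and 18 in each lactate library, a ratio of 0.923, beside 0.723 over all coding genes. The median width of member peaks overlapped between the groups, at 461 and 582.5 bp with control and 578 and 399.5 bp with lactate. The widest member peak was 3277 and 3509 bp in control libraries, against 1085 and 740 bp in lactate libraries. The ratio of peak numbers was above 1 in other settings, at 1.03 with a -log10 q of at least 5 and at 1.57 with equal numbers of peaks, where it was 1.0 over all coding genes.

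Among the coactivators, EP300 had fewer and CREBBP more bases under peaks with lactate. EP300 (chromosome 22, 41092592 to 41180077, plus strand) is 87486 bp long and held a pair of peaks near its 3′ end in either control library. Together they covered 1179 bp in control replicate 2 and 1149 bp in control replicate 3, a mean of 1164 ± 21.2 bp (SD, n = 2). With equal numbers of peaks only the narrower peak remained, at 318 and 364 bp, and the difference went from -1164 to -341 bp. Neither lactate library had a peak anywhere in the window. The stronger summit lay 85529 and 85506 bp from the gene start, with 20 reads (exact Poisson 95% interval 12.2 to 30.9) and 19 reads (11.4 to 29.7). The weaker summit had 15 and 14 reads. A lactate library without a peak here may still carry the mark below the threshold, and these intervals cover counting error only.

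CREBBP (chromosome 16, 3725054 to 3880713, minus strand) is the longest member, at 155660 bp. Its window held 4 and 3 control peaks, against 7 and 6 with lactate. Covered bases were 1711 and 1610 bp in control libraries, against 3245 and 2660 bp in lactate libraries, which is 1660.5 ± 71.4 bp against 2952.5 ± 414 bp (SD, n = 2). The difference of 1292 bp exceeded the spread in either group. CREBBP stayed higher in lactate with a -log10 q of at least 5, equal numbers of peaks, other flanks or neighbouring peaks joined. Settings that leave out or pair libraries could not undo its separation. Merging the 4 lists gave 10 regions over CREBBP, of which 1 was in all 4 libraries and 2 were in both lactate libraries alone.

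The shared CREBBP region (3850308 to 3850973) lies inside the gene, with summits 29926 to 29989 bp from its start. Its depth-adjusted summit reads, which are reads divided by the relative depth, were 27.0 and 17.0 in control libraries, against 24.2 and 22.5 in lactate libraries, so the groups overlapped. The lactate-only regions span 3735826 to 3736384 and 3785414 to 3785825. In the latter, lactate replicate 2 had 18 reads and a fold enrichment over background of 9.16, and lactate replicate 3 had 24 reads and a fold of 10.9. Both regions lie in the distal part of the gene, where 9 of the 10 merged regions fall. A further region at 3740916 to 3741312 had a peak in control replicate 2 with 26 reads and in the lactate libraries with 21 and 30 reads, and none in control replicate 3. The start of CREBBP had no peak in any library.

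Of the GCN5 family genes, KAT2A had wide coverage and KAT2B little. KAT2A (chromosome 17, 42113111 to 42121367, minus strand) is 8257 bp long, and peaks covered 18.2% and 17.3% of its window in control libraries, against 11.4% and 4.64% in lactate libraries. Only 5.50% of coding genes had a larger mean share covered in control, and 6.22% with lactate. In bases this is 3327 and 3157 bp against 2083 and 847 bp, or 3242 ± 120 bp against 1465 ± 874 bp (SD, n = 2). Without the 5 kb flanks the groups overlapped at KAT2A, so its separation rested on peaks in neighbouring sequence.

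The region beside KAT2A that was held in both control libraries alone spans 42122346 to 42123327 and covers HSPB9, a small heat shock protein gene. It had 16 and 27 reads at its summits, at -1233 and -1238 bp relative to the KAT2A start, and its bases include the HSPB9 promoter printed above. Inside KAT2A, a region from 42113274 to 42114359 had a peak in all 4 libraries, with depth-adjusted reads of 21.0 and 18.1 in control libraries, against 12.7 and 18.0 in lactate libraries. The lactate values lay below the control values, by a margin within the counting intervals. The other region in all 4 libraries lies over DHX58, which encodes an RNA helicase of antiviral sensing, and its reads overlapped between the groups.

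KAT2B (chromosome 3, 20040446 to 20154404, plus strand) held 1 peak just inside its start and none elsewhere in its span of 113959 bp. The peak was 379 bp wide in control replicate 2, 413 bp in control replicate 3 and 389 bp in lactate replicate 3, and lactate replicate 2 had none. Summits lay 915, 885 and 1008 bp from the start, with 27, 25 and 31 reads. Fold enrichments were low for that many reads, at 3.83, 3.78 and 4.39, against medians of 7.13 to 7.61 over all peaks of a library. With equal numbers of peaks, the peak was kept in lactate replicate 3 alone.

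Of the MYST family genes, KAT8 had the most covered bases of all members in control libraries. In both lactate libraries CREBBP had more. KAT8, also called MOF, acetylates histone H4 and is the catalytic subunit of the MSL and NSL complexes. It spans 31117664 to 31131393 of chromosome 16, and distances below are from that lower coordinate. Covered bases were 4557 and 4298 bp in control libraries, against 2688 and 2349 bp in lactate libraries, or 4427.5 ± 183 bp against 2518.5 ± 240 bp (SD, n = 2). The difference was -1909 bp (-1116 bp without flanks and -2947.5 bp with flanks of 10 kb). A larger mean share was covered at 5.13% of coding genes in control and at 3.68% with lactate, so KAT8 did not fall in rank among coding genes. The number of peaks was not lower, at 4 and 3 in control libraries, against 4 and 5 in lactate libraries.

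A domain across the upper end of KAT8 and into PRSS8, the gene of the membrane protease prostasin, holds most of these bases in both control libraries and lactate replicate 2. It was 1 peak of 3277 bp in control replicate 2 and 1 peak of 3509 bp in control replicate 3. Lactate replicate 2 had separate peaks of 481 and 1085 bp there, and lactate replicate 3 had peaks of 374 and 734 bp. The lactate summits fell at the same places in both libraries, 12263 bp in each for the first peak, and 13491 and 13496 bp for the second. The control summits lay at 12896 and 12275 bp. Depth-adjusted reads at the highest summit of the domain were 36.0 and 27.6 in control libraries, against 43.2 and 40.5 in lactate libraries. The fold enrichment at the control summits was 12.7 and 9.15, over a local background, in scaled reads expected at the summit, of 1.08 and 1.24. At the first lactate peak the fold was 6.03 and 5.52 over a background of 4.0 in each library. At the second it was 7.82 and 9.06 over 2.2 and 2.13. The series has 2 input libraries, of control cells and of lactate cells, so alike backgrounds within a treatment are not shown to be independent. The domain was narrower with lactate. Depth-adjusted reads at its highest summit were not fewer, while fold at the summits was lower over a higher background. These highest summits lie at different places, and reads over the whole domain were not measured. The part of the background in these widths was not tested.

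A sharp region inside KAT8, from 31127043 to 31127611, was also present in all 4 libraries. Its depth-adjusted reads were 20.0 and 22.3 in control libraries, against 30.5 and 42.8 in lactate libraries, a ratio of means of 1.73. Here the local background was alike, from 1.52 to 1.59, and fold was ordered like the reads, with 5.83 and 6.47 in control and 8.39 and 11.8 in lactate. Both lactate values lay above both control values, but the exact Poisson intervals of the unadjusted reads overlapped. They were 12.2 to 30.9 for 20 reads in control replicate 2 and 26.9 to 52.2 for 38 reads in lactate replicate 3. Overlap of intervals is not a test of the adjusted difference, which was not tested. A region at 31135347 to 31135943, over the end of PRSS8 at higher coordinates, was in all 4 libraries. It had 25 and 19 reads in control and 23 and 21 reads in lactate libraries. Its background was 1.0 in each control and 3.0 in each lactate library, with the limit on input given above. In these terms, 2 of the 6 member regions held in all 4 libraries had higher adjusted reads in both lactate libraries, against 40.9% of all such regions in the genome. The median ratio was 1.19 over the 6 and 1.14 over all 20499.

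**Figure D2:**
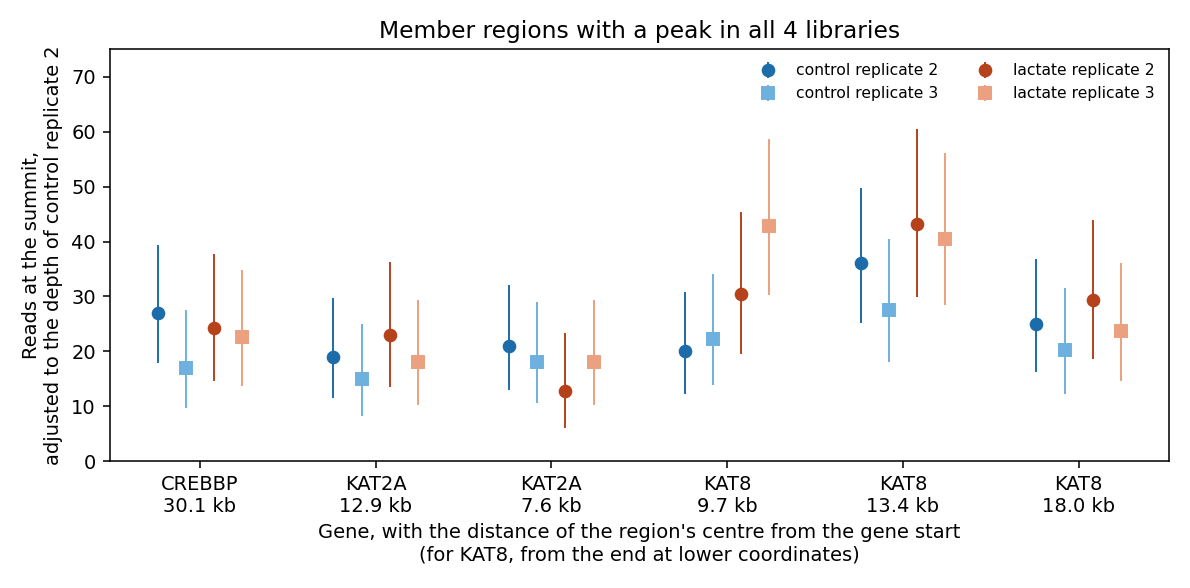
Reads at the highest summit of the 6 member regions with a peak in all 4 libraries, adjusted to the depth of control replicate 2 (y axis); bars are exact Poisson 95% intervals of the reads, scaled in the same way. Among the 6, KAT8 holds the 2 regions with both lactate points above both control points, and their bars overlap.

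KAT5 and KAT7 had small, separate peaks. KAT5 (chromosome 11, 65712018 to 65719604, plus strand), known as TIP60, is the catalytic subunit of the NuA4 complex. It had 1 peak at the same place in 3 libraries, of 332 bp in control replicate 3, 426 bp in lactate replicate 2 and 328 bp in lactate replicate 3. The summits lay 1188, 1157 and 1119 bp after the start site listed at 65712252, with 19, 23 and 22 reads. Control replicate 2 had no peak there. With equal numbers of peaks the control replicate 3 peak also fell out, and KAT5 then counted as higher in lactate.

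KAT7 (chromosome 17, 49788681 to 49835026, plus strand), known as HBO1, had no peak inside the gene that more than 1 library shared. Control replicate 3 had a peak of 687 bp over the start, with its summit at 118 bp and 19 reads, where FAM117A overlaps KAT7. The other libraries had their peak over TAC4, a tachykinin gene, 51246 to 51337 bp from the KAT7 start. Thus the presence of KAT7 among members with a peak in all 4 libraries comes from different places. Bases in the window were 331 and 687 bp in control libraries, against 863 and 212 bp in lactate libraries, which overlap.

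HAT1 (chromosome 2, 171922461 to 171983686, plus strand) had a peak over its promoter in 3 libraries. The peak covered 426 bp in control replicate 2, 664 bp in lactate replicate 2 and 542 bp in lactate replicate 3, and control replicate 3 had none. The mean was 213 ± 301 bp in control libraries, against 603 ± 86.3 bp in lactate libraries (SD, n = 2), a difference of 390 bp that exceeded the larger SD by little. Summits lay 176, 219 and 205 bp after the start, with 17, 19 and 16 reads, whose exact Poisson intervals overlap widely. Fold was 4.37 in control replicate 2 and 8.62 and 6.67 in the lactate libraries, over a local background of 1.97, 1.01 and 0.975. Only 1 control library gives a value here. Part of the promoter sequence printed above lies under these peaks, and the noncoding RNA gene LOC105373740 lies on part of the same bases.

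Of the alanyl-tRNA synthetase genes, both had fewer bases under peaks with lactate. AARS1 (chromosome 16, 70252298 to 70289506, minus strand) had 1 peak of 516 bp in control replicate 2 and 614 bp in control replicate 3, and none in either lactate library. The summits lay 26963 and 26880 bp from the start, with 15 and 18 reads. These are weak peaks, with a -log10 q of 3.83 and 6.35, and with equal numbers of peaks AARS1 had none in any library. At a -log10 q of at least 5 the control replicate 2 peak was lost and the groups overlapped.

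AARS2 spans 44298731 to 44313347 of chromosome 6, and covered bases were 2349 and 2711 bp in control libraries, against 787 and 625 bp in lactate libraries. The means were 2530 ± 256 bp and 706 ± 115 bp (SD, n = 2), a ratio of 0.279. With equal numbers of peaks the difference went from -1824 to -662 bp. In either control library, neighbouring peaks lay in the same pair of regions. Lactate replicate 2 had a peak in the first of them (44302298 to 44303420) and none in the second. Lactate replicate 3 had a peak in the second (44304046 to 44305498) and none in the first. AARS2 was thus counted in all 4 libraries although the lactate libraries shared no peak over it. Control replicate 3 alone had a further peak of 389 bp across the upper end of the gene (44313001 to 44313389), with 18 reads.

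**Figure D3:**
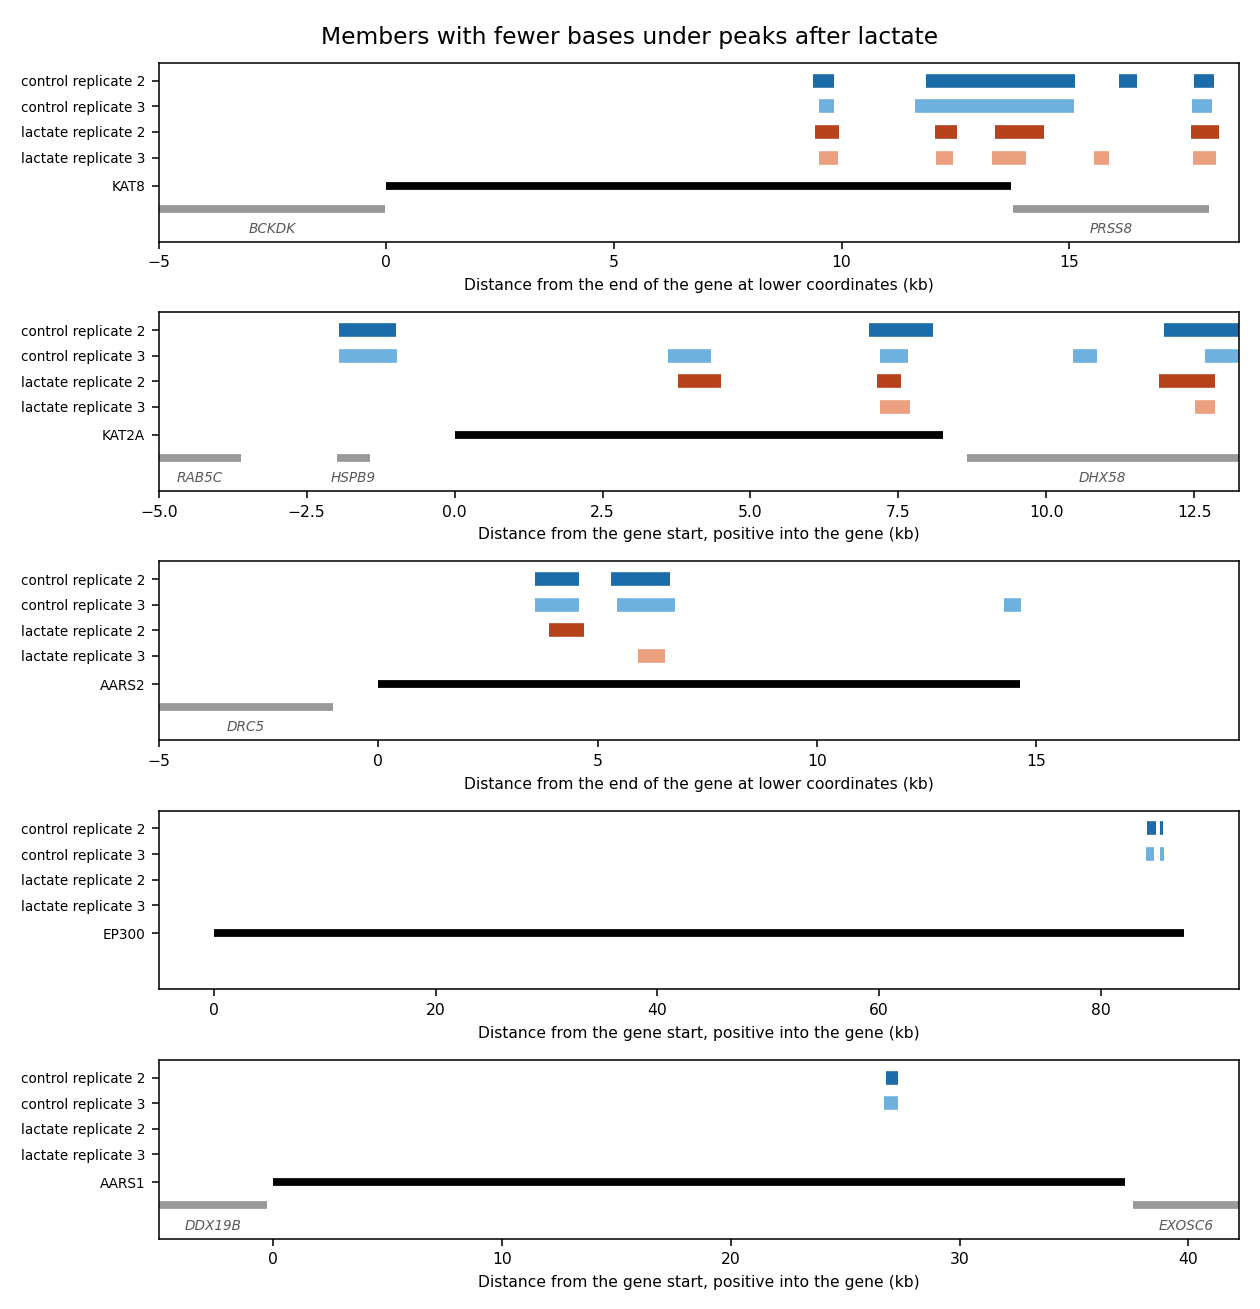
Peaks of each library (coloured bars) over the 5 members with fewer bases under peaks after lactate, with the member gene in black and neighbouring coding genes in grey; the x axis is the distance in kb from the gene start, or from the lower-coordinate end for KAT8 and AARS2. The KAT8 domain is 1 control peak and 2 lactate peaks, and EP300 and AARS1 have control peaks alone.

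**Figure D4:**
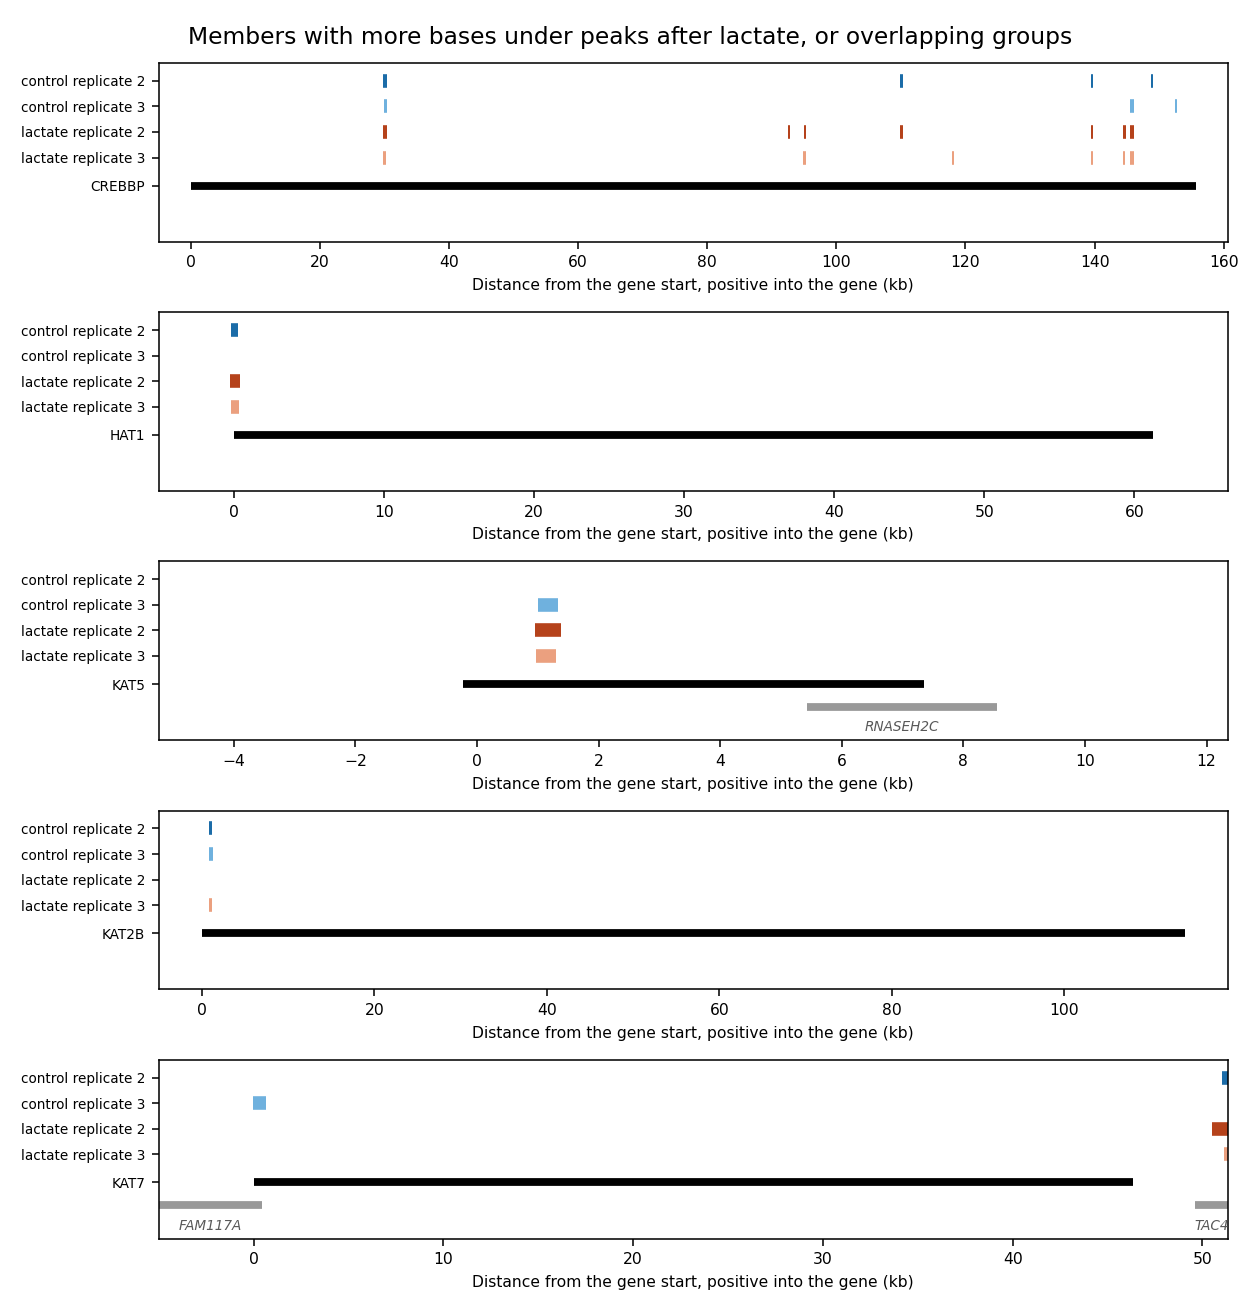
The same for CREBBP, HAT1, KAT5, KAT2B and KAT7, with the distance from the gene start in kb on the x axis. CREBBP has 7 and 6 lactate against 4 and 3 control peaks, HAT1, KAT5 and KAT2B have 1 peak near the start in 3 libraries, and the KAT7 peaks lie at its start in control replicate 3 and over TAC4 in the others.

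Merging the lists over all members gave 31 regions. Of these 6 (19.4%) were held in all 4 libraries, 4 in both control libraries alone and 2 in both lactate libraries alone. Over the genome 28.8% of merged regions were in all 4 libraries, 14.6% in the control pair alone and 2.75% in the lactate pair alone. The remaining 19 member regions had a peak in other combinations, among them the regions of KAT2B, KAT5 and HAT1 described above. None of the 8 members with a listed start had a peak within 1 kb of it in all 4 libraries. Where no start is listed both gene ends were allowed, and 1 member, KAT8, then counted, against 7.06% of coding genes under the same rule. The KAT8 peaks lay at its upper end, which is not shown to be its start.

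Other genes of the pathway were compared in the same way, from lists written by name. The genes named here and in the next paragraph were picked for the largest control coverage or the best ranks of fold. Picking by control coverage favours genes that are lower with lactate, so these examples do not stand for their lists. Of 45 other acetyltransferases and subunits of the writers' complexes, 31 had a peak. Of these, 18 (58.1%) had fewer covered bases in both lactate libraries and 1 (3.23%) had more. Among all coding genes with a peak the shares were 55.1% and 5.72%. EP400, a remodelling subunit of NuA4, had 11880 and 10235 bp in control libraries, against 4865 and 3715 bp in lactate libraries. BRD1, a scaffold of MYST complexes, and TRRAP, shared by SAGA and NuA4, were lower as well, as were JADE2 and BRPF1. Of 36 other aminoacyl-tRNA synthetases, 28 had a peak, and of these 12 (42.9%) were lower and 2 (7.14%) were higher. CARS2 and CARS1, the mitochondrial and cytosolic cysteinyl-tRNA synthetases, had 11458 and 10508 bp and 11234 and 10644 bp in the control libraries. Their lactate values were 3157 and 4081 bp and 3396 and 3801 bp. SARS2 was also lower, and at QARS1 the groups overlapped.

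Of 11 erasers and readers, 6 had a peak and 5 of these (83.3%) were lower, against 55.1% of coding genes with a peak. SMARCA4, a chromatin remodeller described as a reader of lactylated histones, had 13978 and 13155 bp in control libraries, against 5200 and 6483 bp in lactate libraries. The deacylase genes SIRT2 and SIRT3 were lower too, and SIRT3 had no lactate peak. Of 10 genes that supply lactate or lactyl-CoA, 8 had a peak and 4 were lower, among them HAGH, a glyoxalase, and LDHA, while SLC16A3 and ACSS2 overlapped between the groups. The median difference over genes with a peak was -383 bp for the members, -371 bp for the complex subunits, -264 bp for the synthetases, -907 bp for erasers and readers and -451.5 bp for the supply genes. Over all 11870 coding genes with a peak it was -437 bp.

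**Figure D5:**
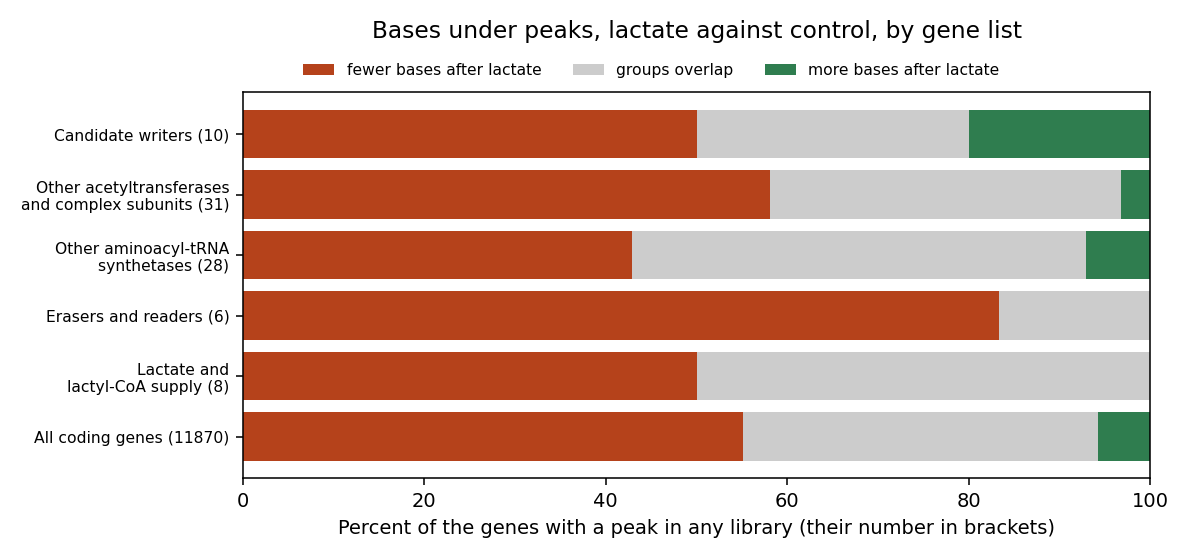
Share of the genes with a peak in any library (x axis, percent) whose bases under peaks were fewer in both lactate libraries, overlapped, or were more in both lactate libraries, for the members, the other lists and all coding genes. Fewer bases after lactate were seen at 50% of members and 55.1% of coding genes, and more bases at 20% and 5.72%.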

How the data were processed

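H4K5la ChIP-seq peak lists of 4 libraries were used. Per the labels' protocols, reads were quality-checked, trimmed, aligned and cleared of duplicates, and per the submitters' processing notes the tools include Bowtie2 2.3.4.2, Picard 2.18.11 and MACS2 2.2.6, with build hg38. Each deposited list holds 1 library. Beside positions, the authors deposited for each peak a whole-number score, the fold over local background where the peak is highest (a ratio), and 2 significance columns, -log10 p-value and -log10 q-value. The lowest deposited -log10 q was 2.00 to 2.02.

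Gene spans came from RefSeq GRCh38.p14 and gene starts from its promoter table (both gene ends where a gene had no entry). Exons were not in these tables. Reads at each summit were recovered by finding the scaling factor at which fold and -log10 p give whole reads within 0.001 on the -log10 p. Relative depth further assumes that the lowest background is the genome-wide one and that the narrowest peak equals the fragment length. The method and the gene counts were tested on simulated data. Genes count as lower or higher where the libraries of the groups do not overlap, and the exact two-sided permutation test runs over 6 assignments. Named genes are the members, coding neighbours in their windows and, per list, up to 3 with the largest control coverage and 3 by rank of fold among those with a peak in all 4 libraries. The members and lists were chosen with earlier results of these data known. Python 3.11.15, pandas 2.3.3, numpy 2.4.6, scipy 1.17.1 and matplotlib 3.10.9 were used.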

Additional observations from a re-analysis of the deposited data

How the results depend on the processing

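Over 11 other settings, 99 of 110 comparisons of a member gene kept its place as lower, higher or overlapping, 3 lost a separation and 8 gained one. No gene that was separated at the outset changed sign, but KAT7, which overlapped, was lower without lactate replicate 2 (-297 bp) and higher without lactate replicate 3 (354 bp). EP300, CREBBP, KAT8, HAT1 and AARS2 kept theirs in every setting tried. Leaving out a library or pairing libraries cannot undo a separation, so those settings could only show gains. Requiring at least 50% of a peak inside the window left every member difference unchanged. The remaining settings, which change the peaks or the window, are the ones where a separation could be lost. The 3 losses were AARS1 with a -log10 q of at least 5 and with equal numbers of peaks, and KAT2A without flanks. The gains were at KAT2B, KAT5 and KAT7. Without lactate replicate 3, KAT5 also counted as higher and KAT2B as lower. KAT5 was higher as well without control replicate 3 and with equal numbers of peaks, and KAT2B was lower without control replicate 2.

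The ratio of peak numbers over the members moved from 0.923 to 1.03 with a -log10 q of at least 5, 1.57 with equal numbers of peaks, 0.967 without flanks and 0.820 with flanks of 10 kb. The ratio of covered bases was 0.941 with equal numbers of peaks, against 0.652 over all coding genes. The causes were not tested. Leaving out each library in turn gave ratios of 0.900 to 0.947 for peak numbers and 0.535 to 0.723 for covered bases. It gave 5 to 6 lower genes, 2 to 4 higher genes and 5 to 6 genes with a peak in all libraries. With either end allowed for KAT8, 1 to 2 genes had a peak at the start in all libraries. With the replicate block, pairing libraries of the same number, 6 genes were lower (KAT2B added) and 2 higher, with ratios of 0.630 for covered bases and 0.924 for peak numbers. Deviations of same-numbered libraries correlated at 0.0338 over 6601 genes, so the numbers are not shown to pair the libraries. Leaving out or pairing libraries loosens the rule at every gene, so the gene counts of these settings could only stay or rise. Shares over all coding genes are not given for them, and the counts are not read against a background. At 10 to 38 reads per summit, a missing peak is not an absence of the mark.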
